A study of Mus musculus with 12 samples.

Results

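The genes described here are 43 genes of DNA replication and S phase entry, taken by gene symbol from the 20819 rows of a table of gene expression in mouse kidney tubuloids. All 43 symbols had a row, and all 43 had enough signal to be tested. Tubuloids are small epithelial structures that primary renal tubular cells form in Matrigel, a basement membrane gel. They were grown from the renal cortex of 4 wildtype mice and treated for 12 h before total RNA was taken for stranded mRNA sequencing.

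There were 3 groups of 4 libraries each, all of wildtype genotype and all grown in Matrigel. The first had received myoglobin, the haem protein of muscle that serves as the injuring agent, together with the synthetic glucocorticoid dexamethasone at 100 nM. The second had received myoglobin alone, and the third had received vehicle. No group had dexamethasone without myoglobin, so the effect of the glucocorticoid was seen only in tubuloids that also carried the injuring agent. The labels number the libraries from 1 to 4 in each group without saying that a number stands for a mouse, so the p-values measure only the spread between these samples, which may be technical.

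Before a cell copies its DNA, transcription factors of the E2F family and cyclin E bring it through the G1/S boundary and raise the transcripts of the replication machinery. Origins are then licensed by loading the MCM helicase, the helicase is activated, and polymerases with a sliding clamp copy both strands while nucleotides are made and histones are laid down behind the fork. Cells of the adult kidney tubule divide rarely, and they re-enter the cell cycle after injury to replace lost neighbours. In bulk RNA a smaller share of cells in S phase and less replication mRNA in each such cell cannot be told apart.

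The promoters of several of these genes hold the sequence words to which E2F factors are known to bind, and 5 of these promoters are given because they belong to genes of S phase entry and origin licensing and hold such a word upstream of the start in their only promoter entry. They are the 250 bases before the transcript start in RefSeq (build GRCm38.p6), written 5′ to 3′ on the strand of the gene, with each E2F word in capitals. They lie at chr10:110745189-110745438 on the plus strand for E2f7, chr11:98907901-98908150 on the plus strand for Cdc6, chr4:108579204-108579453 on the plus strand for Orc1, chr8:75109259-75109508 on the plus strand for Mcm5 and chr1:128359706-128359955 on the minus strand for Mcm6. The stretch of Cdc6 lies inside the coordinates of its gene, 98907801 to 98923940.
E2f7: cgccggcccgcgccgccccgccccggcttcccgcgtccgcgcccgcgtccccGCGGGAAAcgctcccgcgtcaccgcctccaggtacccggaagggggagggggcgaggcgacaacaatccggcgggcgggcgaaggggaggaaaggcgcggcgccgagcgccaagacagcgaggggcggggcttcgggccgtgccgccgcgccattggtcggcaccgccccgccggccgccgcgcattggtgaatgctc
Cdc6: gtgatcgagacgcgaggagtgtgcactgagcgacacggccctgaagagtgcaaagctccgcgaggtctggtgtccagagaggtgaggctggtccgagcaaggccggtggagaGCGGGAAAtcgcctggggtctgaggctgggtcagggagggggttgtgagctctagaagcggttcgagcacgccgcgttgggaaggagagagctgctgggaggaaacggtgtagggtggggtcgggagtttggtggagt
Orc1: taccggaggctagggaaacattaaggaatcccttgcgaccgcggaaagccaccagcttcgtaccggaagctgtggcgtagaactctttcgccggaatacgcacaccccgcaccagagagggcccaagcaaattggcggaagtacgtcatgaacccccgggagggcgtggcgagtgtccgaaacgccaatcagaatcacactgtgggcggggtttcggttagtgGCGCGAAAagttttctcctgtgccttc
Mcm5: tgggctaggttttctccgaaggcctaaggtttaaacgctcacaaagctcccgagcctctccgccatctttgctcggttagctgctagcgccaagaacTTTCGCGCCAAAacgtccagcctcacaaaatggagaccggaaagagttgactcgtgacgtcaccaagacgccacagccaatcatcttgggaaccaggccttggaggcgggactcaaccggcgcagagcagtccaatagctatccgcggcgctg
Mcm6: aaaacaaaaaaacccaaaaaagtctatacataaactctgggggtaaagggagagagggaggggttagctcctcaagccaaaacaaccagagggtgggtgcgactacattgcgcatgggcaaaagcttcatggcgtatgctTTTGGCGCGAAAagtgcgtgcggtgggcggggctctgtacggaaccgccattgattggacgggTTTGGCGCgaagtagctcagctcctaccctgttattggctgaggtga
The words searched on both strands were TTTGGCGC, TTTCCCGC, TTTGCCGC and TTTCGCGC, in the window of 250 bases before to 50 bases after each start. Counted from the start as position 0, the first base of the word was at -198 in E2f7, at -138 in Cdc6 and at -27 in Orc1. Mcm5 had overlapping words at -153 and -149, and Mcm6 had overlapping words at -110 and -106 and another at -47. Mcm7, a licensing gene with more than 1 promoter entry, held a word at -165 in one of them. Of the 36 genes of the set with a promoter entry, 15 (41.7%) held at least 1 E2F word, against 502 of 10984 tested genes with an entry (4.57%) and 704 of 27025 genes in all (2.6%). A gene with several entries counted when any of them held the word. Mcm4, Gins2, Ccne2, Gmnn, Gins1, Pole and Rfc2 had no entry and were not searched. A match describes letters in this window and shows no binding.

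Other words were searched in the same windows. The CCAAT box, with the letters CCAAT on either strand, was found for 23 of the 36 genes (63.9%) and for 43.2% of tested genes. The cell cycle homology word TTTGAA, common in promoters of mitotic genes, was found for 6 (16.7%), against 14.5% of tested genes, and the E box CACGTG for 5 (13.9%), against 11.6%. The palindromic glucocorticoid response element was found for 0 of the 36 genes, against 46 of 10984 tested genes (0.419%). Single promoters can hold several of these words.

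The deposited values are read counts scaled by library and rounded, and the depth of each library was estimated from the steps between them. The estimate was 3.25 to 5.53 M reads for the libraries with both agents, 5.33 to 5.92 M for those with myoglobin and 5.51 to 5.87 M for those with vehicle. Replicate 4 of myoglobin and dexamethasone was the shallowest library, with a value of 0 for 2179 genes, while the count of such genes was 1051 to 1544 elsewhere. Fkbp5, a glucocorticoid target, had 493, 548, 595 and 579 with both agents, against 238, 237, 230 and 265 with myoglobin alone (1.19 ± 0.0728, limma adjusted p 1.53e-07), and Tsc22d3, another target, rose by 0.45 ± 0.0717 (adjusted p 0.00135). Hmox1, the haem oxygenase, had 475, 446, 468 and 451 with myoglobin, against 110, 113, 124 and 106 with vehicle. All 8 markers of tubular epithelium were in the table, and their summed values were 9385 to 12562 with both agents, 8934 to 9378 with myoglobin and 9463 to 9876 with vehicle. Of the 8 proximal tubule markers 6 were matched, with sums of 314 to 399, 383 to 470 and 252 to 291 in the same order, most of it Lrp2. The distal nephron list summed to 3154 to 3482 with both agents, 2150 to 2420 with myoglobin and 2371 to 2982 with vehicle, which is higher than the proximal list in every group.

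Per kilobase of exonic length, vehicle tubuloids had the highest levels for Mcm4 (216 normalised reads per kb), Uhrf1 (212), Mcm3 (196), Mcm6 (187) and Rrm2 (186). The lowest levels per kilobase were those of E2f7 (27.4), E2f2 (28.9), Orc1 (32.6) and Mcm10 (40.0). Several helicase subunits thus stood at the upper end of the set, and E2f7, E2f2 and the origin recognition subunit Orc1 at the lower end. No test compared levels between genes. The length is that of all annotated exons of a gene joined, which can exceed that of its mRNA, so the order depends on the annotation. Rrm1, with the highest vehicle mean of the set (937), had 85.1 per kb over 11012 bases.

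With dexamethasone added to myoglobin, most of the replication genes fell. Of the 43 genes 34 fell with myoglobin and dexamethasone relative to myoglobin alone, and 0 rose (limma, Benjamini-Hochberg adjusted p below 0.05). The background in this comparison was 568 of 14558 tested genes lower (3.9%) and 448 higher (3.08%). All 43 changes were below 0, with a median log2 fold change of -0.42 and a range of -0.80 to -0.12, while the median of all tested genes was 0.01. In 29 of the 43 genes every library with both agents was below every library with myoglobin alone, against 6.19% of all tested genes. The 34 genes were spread over all 7 roles of the set. The heat map of the 12 libraries shows the pattern gene by gene.

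**Figure D1:**
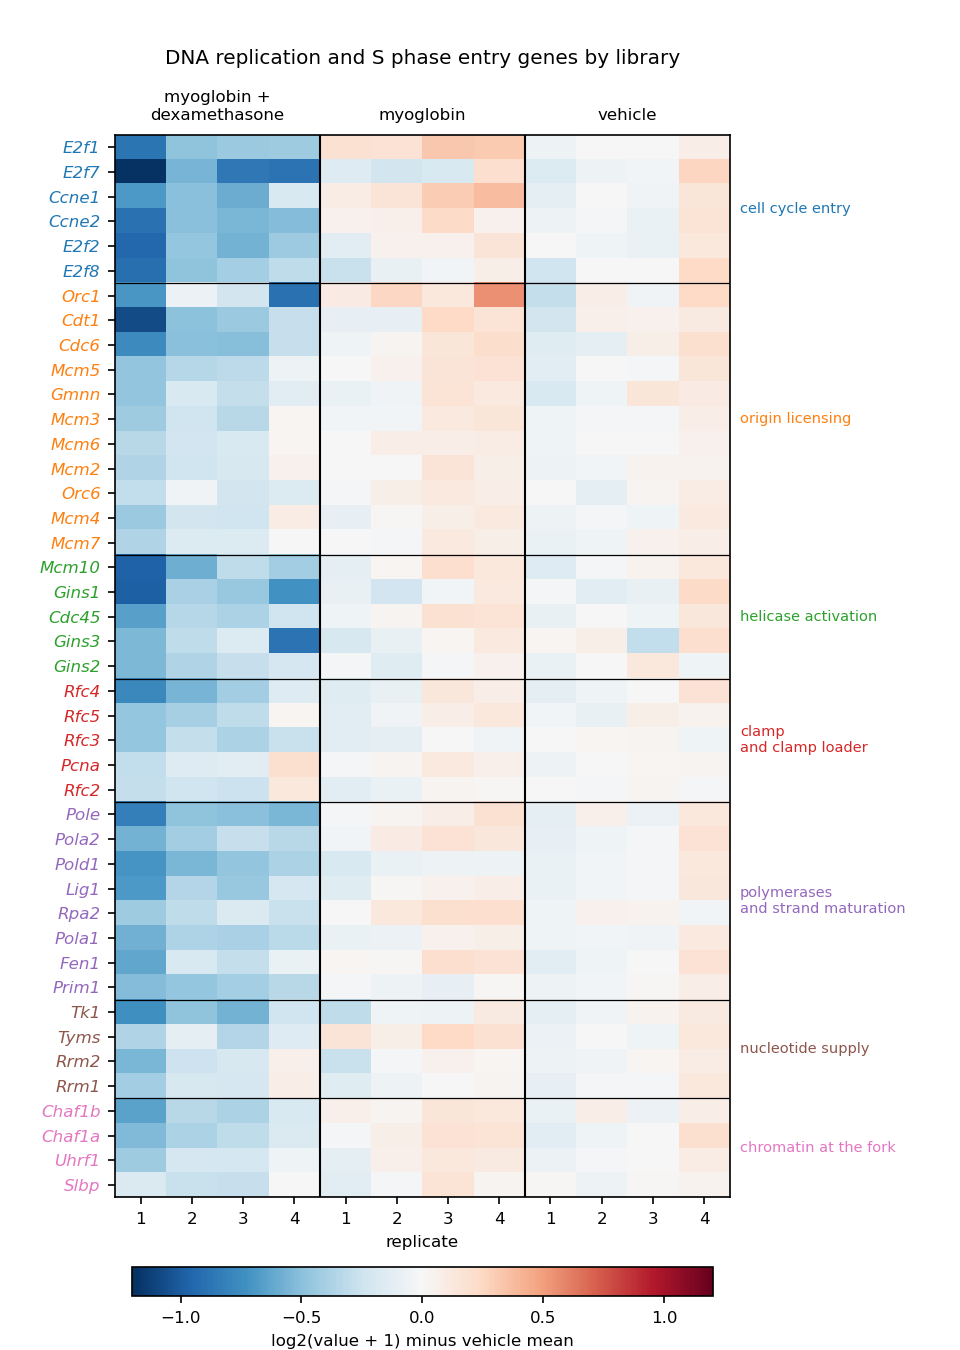
Each cell is the log2 of a deposited value plus 1 minus the mean of the 4 vehicle libraries, for 43 genes in rows grouped by role and 12 libraries in columns (replicates 1 to 4 of myoglobin and dexamethasone, myoglobin, vehicle). The median of the 43 genes was -0.55, -0.34, -0.31 and -0.20 in the libraries with both agents, against -0.06 to 0.12 with myoglobin and -0.08 to 0.12 with vehicle.

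The median over the 43 genes, set against the vehicle mean, was -0.55, -0.34, -0.31 and -0.20 on the log2 scale in replicates 1 to 4 with both agents. It was -0.06, 0.01, 0.12 and 0.12 with myoglobin, and -0.08, -0.02, -0.01 and 0.12 with vehicle. All 4 libraries with both agents were below the 8 others. Over all tested genes the same quantity was between -0.001 and 0.009 in each of the 12 libraries.

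The genes that drive entry into S phase fell in full, 6 of 6, with a median log2 fold change of -0.72. E2f1, the activator E2F factor (ENSMUSG00000027490, chromosome 2, 154559407 to 154569892, mm10), had 112, 147, 151 and 153 normalised reads with myoglobin and dexamethasone, against 234, 232, 258 and 256 with myoglobin. The groups did not overlap, and replicate 1 was the lowest of the treated libraries. The change was -0.80 ± 0.0887 (log2 fold change ± SE, 95% interval -0.99 to -0.62, limma adjusted p 6.69e-05), and the ratio of the means was 0.574.

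Ccne2, cyclin E2, which activates CDK2 at the G1/S boundary (ENSMUSG00000028212, chromosome 4, 11191351 to 11204779), had 91, 120, 116 and 118 with both agents, against 176, 177, 199 and 176 with myoglobin. Every library with both agents was below every library with myoglobin alone (-0.71 ± 0.0926, limma adjusted p 0.000286). Ccne1, cyclin E1 (ENSMUSG00000002068, chromosome 7, 38097984 to 38107534), had 111, 127, 119 and 158 with both agents, against 191, 201, 223 and 233 with myoglobin, again with no overlap (-0.72 ± 0.102, limma adjusted p 0.000545).

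The atypical factors E2f7 and E2f8, which repress E2F targets late in S phase, fell as well. E2f7 averaged 135 with both agents and 232 with myoglobin (-0.78 ± 0.127, limma adjusted p 0.0016). E2f8 averaged 332 with both agents and 448 with myoglobin (-0.44 ± 0.118, limma adjusted p 0.0334). The call for E2f8 was lost when any 1 of 5 libraries was left out, with adjusted p between 0.0566 and 0.11, and over all 28 alternative settings the adjusted p was 2.92e-05 to 0.171. The second activator of the set, E2f2, averaged 93.5 with both agents and 144 with myoglobin (-0.63 ± 0.108, limma adjusted p 0.00243). Activators and repressors among the E2F factors of the set thus moved in the same direction. Outside the set, E2f3, E2f4, E2f5 and E2f6 did not pass, with changes of -0.17 to -0.05.

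**Figure D2:**
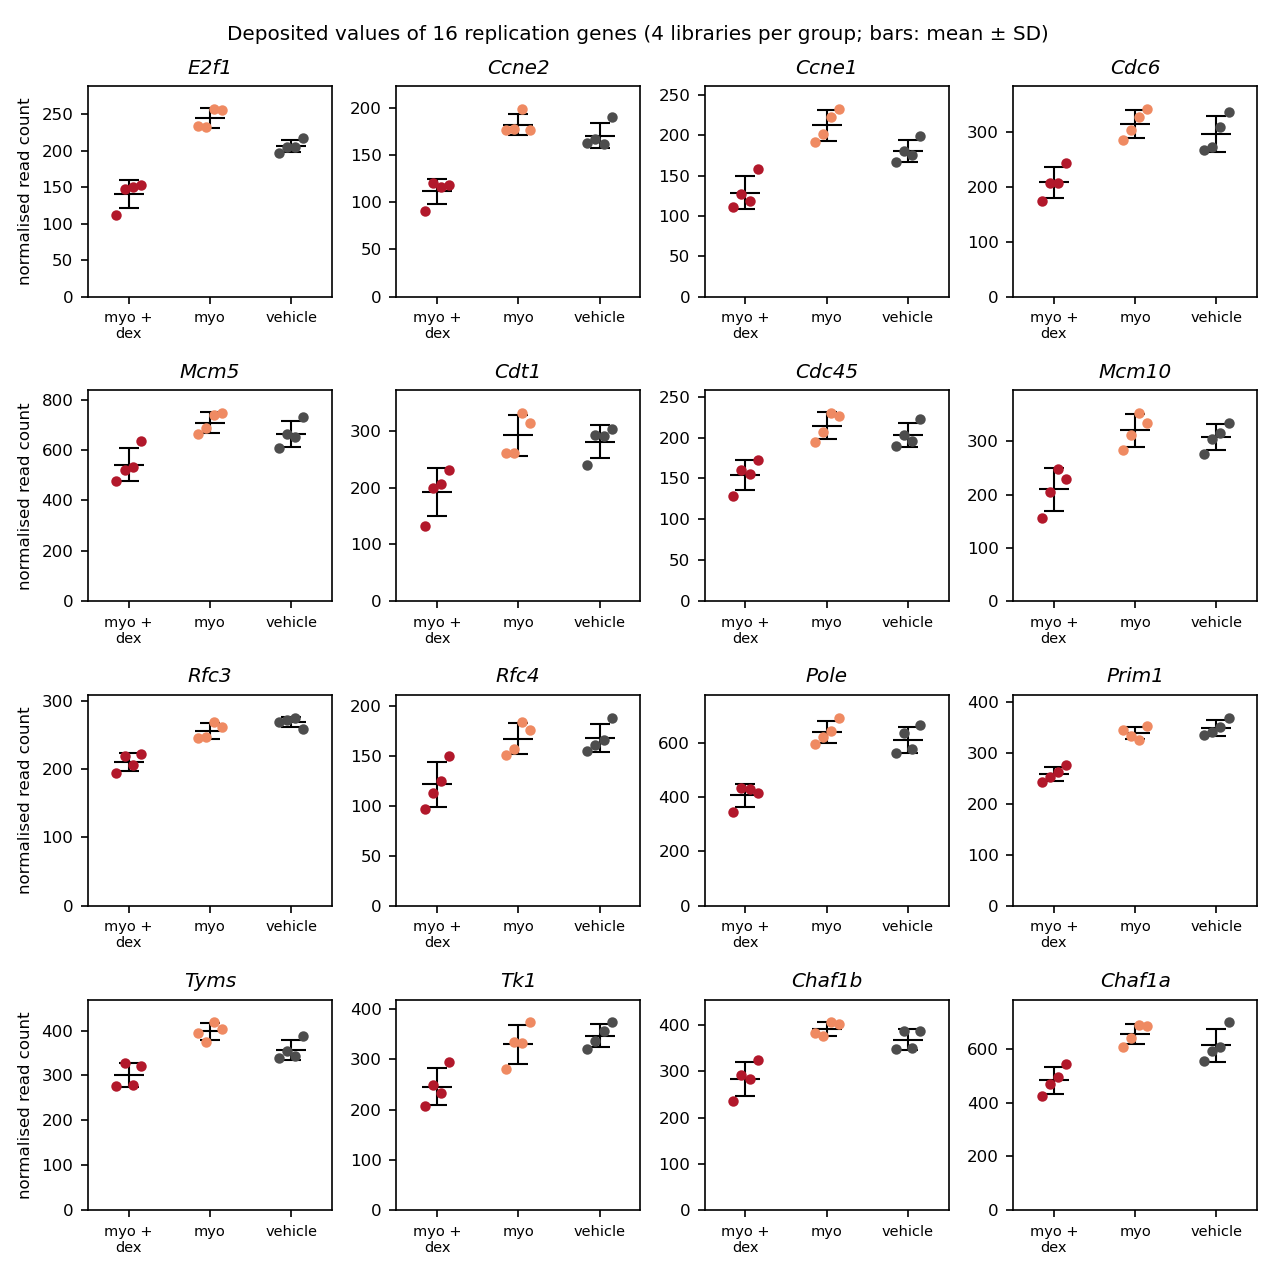
Points are the deposited normalised read counts of the 4 libraries of each group for 16 genes, with myoglobin and dexamethasone on the left, myoglobin in the middle and vehicle on the right; bars are means ± SD and axes start at 0. In 15 of the 16 genes every library with both agents lies below every library with myoglobin alone, and Tk1 is the exception.

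Of the 11 genes of origin licensing 9 fell, with a median of -0.30. Cdc6, the ATPase that loads the MCM ring (ENSMUSG00000017499, chromosome 11, 98907801 to 98923940), had 174, 208, 207 and 244 with both agents, against 285, 303, 327 and 343 with myoglobin. The groups did not overlap, and the change was -0.60 ± 0.0972 (limma adjusted p 0.00164). Cdt1, its partner in loading (ENSMUSG00000006585, chromosome 8, 122568015 to 122573554), had 133, 199, 206 and 232 with both agents, against 262, 262, 332 and 314 with myoglobin. These groups did not overlap either (-0.62 ± 0.138, limma adjusted p 0.0134).

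Orc1, a subunit of the origin recognition complex that marks origins, averaged 83.0 ± 22.1 with both agents and 136 ± 20.6 with myoglobin (SD, n = 4 each). Its change of -0.73 ± 0.17 carried the widest error of the set (limma adjusted p 0.0172). Without replicate 4 of myoglobin, its highest library, the change was -0.63 and the adjusted p 0.0682, and without replicate 1 of myoglobin and dexamethasone they were -0.65 and 0.0524. The adjusted p was 0.00386 to 0.0682 over the 28 alternatives. Orc6, another subunit, fell by 0.24 ± 0.0649 on the log2 scale (limma adjusted p 0.0354). The call of Orc6 held in 6 of the 12 fits that left out 1 library.

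The subunits of the MCM helicase, which encircles DNA at each licensed origin, showed small changes at high levels. Mcm5 (ENSMUSG00000005410, chromosome 8, 75109569 to 75128439) had 478, 522, 532 and 635 with both agents, against 663, 687, 739 and 747 with myoglobin. Its groups did not overlap (-0.39 ± 0.0758, limma adjusted p 0.00557). The other subunits Mcm2, Mcm3, Mcm6 and Mcm7 fell with changes of -0.30 to -0.22, and in none of these 4 were the groups apart. Mcm4 did not pass (-0.23 ± 0.0855, limma adjusted p 0.128, 95% interval -0.41 to -0.05). The calls of Mcm2 and Mcm7, with adjusted p 0.0466 and 0.048, were each lost in 10 or more of the 12 fits that left out 1 library. Those of Mcm3 and Mcm6 each held in 7 of the 12. Gmnn, geminin, the inhibitor of Cdt1, had a change of -0.30 ± 0.0954 and did not pass (limma adjusted p 0.0695).

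Among the 5 genes that turn the loaded ring into an active helicase 4 fell, with a median of -0.48. Cdc45, a helicase cofactor (ENSMUSG00000000028, chromosome 16, 18780447 to 18811987), had 129, 160, 155 and 172 with both agents, against 195, 207, 230 and 227 with myoglobin. No library with both agents reached those with myoglobin (-0.48 ± 0.0882, limma adjusted p 0.00392). Mcm10, which is needed to start the helicase (ENSMUSG00000026669, chromosome 2, 4989714 to 5012791), had 156, 204, 248 and 230 with both agents, against 283, 311, 353 and 335 with myoglobin, with no overlap (-0.63 ± 0.116, limma adjusted p 0.00404). Of the GINS subunits, the other cofactors of the helicase, Gins1 (-0.58) and Gins2 (-0.31) fell. The call of Gins2 held in 7 of the 12 fits that left out 1 library. Gins3 had a change of -0.44 ± 0.144 and did not pass (limma adjusted p 0.0814), and replicate 4 with both agents, at 65, was its lowest library.

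The sliding clamp and its loader had the smallest median change of the 7 roles, -0.28, and 2 of the 5 genes fell. Rfc3, a subunit of the clamp loader (ENSMUSG00000033970, chromosome 5, 151642756 to 151651242), had 195, 220, 206 and 223 with both agents, against 246, 248, 269 and 262 with myoglobin. The groups were apart (-0.28 ± 0.0565, limma adjusted p 0.00704). Rfc4, another loader subunit (ENSMUSG00000022881, chromosome 16, 23113943 to 23127737), had 97, 113, 125 and 150 with both agents, against 151, 157, 184 and 176 with myoglobin. Its highest library with both agents was 1 below the lowest with myoglobin (-0.47 ± 0.115, limma adjusted p 0.0221), and the call was lost without any 1 of 4 libraries, with adjusted p between 0.0547 and 0.0733 (0.000766 to 0.144 over the 28 alternatives).

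Pcna, the clamp itself, had 274, 301, 306 and 385 with both agents, against 333, 344, 365 and 350 with myoglobin. Replicate 4 with both agents was above every myoglobin library, and the change of -0.15 ± 0.0782 did not pass (limma adjusted p 0.283, 95% interval -0.31 to 0.02). Rfc2 (-0.12, adjusted p 0.342) and Rfc5 (-0.30, adjusted p 0.0561) did not pass, and in both the same replicate 4 was the highest library of its group. Without that library all 3 genes passed.

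The polymerases and the proteins that finish the new strand fell in full, 8 of 8, with a median of -0.42. In all 8 the groups with both agents and with myoglobin did not overlap. Pole, the catalytic subunit of the leading strand polymerase (ENSMUSG00000007080, chromosome 5, 110286306 to 110337474), had 344, 435, 431 and 415 with both agents, against 597, 622, 644 and 693 with myoglobin. It had the largest change of this role (-0.66 ± 0.0751, limma adjusted p 9.05e-05). Prim1, the primase that starts each new strand (ENSMUSG00000025395, chromosome 10, 128015168 to 128030037), had 242, 253, 262 and 276 with both agents, against 344, 333, 325 and 353 with myoglobin. Its change was smaller and its error the smallest of the 43 genes (-0.39 ± 0.0524, limma adjusted p 0.000359).

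The remaining members of this role were alike in size of change. Pola1 and Pola2, subunits of the polymerase that extends the primer, changed by -0.41 ± 0.0593 and -0.49 ± 0.0703. Pold1, the catalytic subunit of the lagging strand polymerase, changed by -0.43 ± 0.0641. Rpa2, a subunit of the protein that coats single-stranded DNA, changed by -0.42 ± 0.0628. Fen1, which trims the flaps of Okazaki fragments, and Lig1, which joins them, changed by -0.39 ± 0.0981 and -0.43 ± 0.0827. The limma adjusted p of these 6 genes was between 0.00061 (Pola2) and 0.0246 (Fen1).

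Of the 4 genes of nucleotide supply 2 fell. Tyms, thymidylate synthase (ENSMUSG00000025747, chromosome 5, 30058202 to 30073617), had 277, 327, 279 and 320 with both agents, against 395, 374, 419 and 404 with myoglobin. The groups were apart (-0.41 ± 0.0647, limma adjusted p 0.00144). Tk1, the thymidine salvage kinase (ENSMUSG00000025574, chromosome 11, 117815526 to 117826092), had 207, 248, 233 and 294 with both agents, against 280, 334, 332 and 374 with myoglobin. Here replicate 4 with both agents exceeded replicate 1 with myoglobin (-0.43 ± 0.0986, limma adjusted p 0.016), and the adjusted p was 0.0624 without replicate 4 of myoglobin and 6.92e-05 to 0.135 over the 28 alternatives. Rrm1 (-0.14, adjusted p 0.306) and Rrm2 (-0.18, adjusted p 0.314), the subunits of ribonucleotide reductase, did not pass, and in both the highest library with both agents, replicate 4, exceeded every library with myoglobin.

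Of the 4 genes grouped as chromatin at the fork, among them Slbp, which binds histone mRNA, 3 fell. Chaf1b, a subunit of the factor that sets histones on new DNA (ENSMUSG00000022945, chromosome 16, 93883901 to 93906115), had 235, 292, 283 and 325 with both agents, against 384, 376, 407 and 402 with myoglobin. Chaf1a, its partner subunit (ENSMUSG00000002835, chromosome 17, 56040439 to 56072289), had 425, 470, 496 and 544 with both agents, against 608, 644, 690 and 687 with myoglobin. In both genes the groups were apart, with changes of -0.47 ± 0.0783 for Chaf1b and -0.45 ± 0.0767 for Chaf1a (limma adjusted p 0.00189 and 0.00255). Uhrf1, which carries DNA methylation over to the new strand, fell by 0.27 ± 0.0704 on the log2 scale (limma adjusted p 0.0304). Its call held in 6 of the 12 fits that left out 1 library. Slbp, the binding protein of histone mRNA, had a change of -0.19 ± 0.0675 and did not pass (limma adjusted p 0.1).

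**Figure D3:**
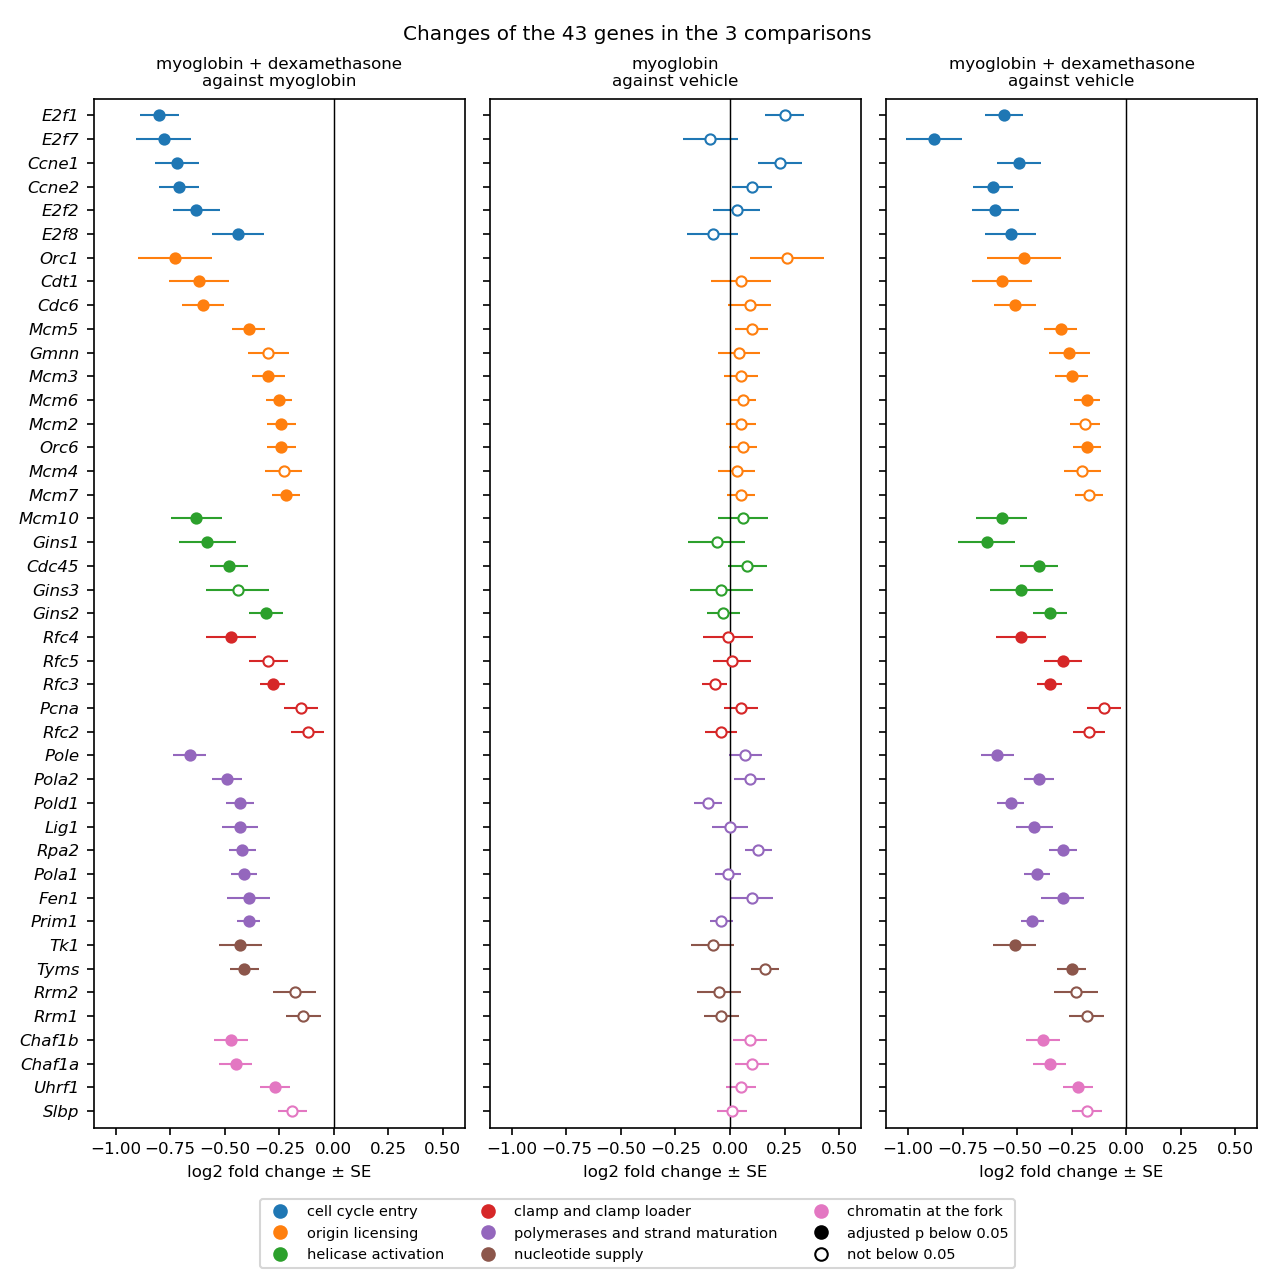
Points are log2 fold changes ± SE of the 43 genes, ordered by role, in the comparisons of myoglobin and dexamethasone against myoglobin, myoglobin against vehicle, and myoglobin and dexamethasone against vehicle; filled points have a limma adjusted p below 0.05. The counts of filled points are 34, 0 and 35, and in the outer panels every point lies left of 0.

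With myoglobin alone none of the 43 genes passed the test. Relative to vehicle 0 fell and 0 rose (limma), against a background of 1401 genes lower (9.62%) and 1268 higher (8.71%), and 3 had an unadjusted p below 0.05. The changes ranged from -0.10 to 0.26 with a median of 0.05, with 29 above 0 and 14 below. E2f1 had 234, 232, 258 and 256 with myoglobin, against 197, 205, 205 and 217 with vehicle. It was the 1 gene of the 43 in which every myoglobin library was above every vehicle library, a state found in 12.9% of all tested genes. Its change of 0.25 ± 0.0887 did not pass (limma adjusted p 0.067, 95% interval 0.06 to 0.44). Tyms had 395, 374, 419 and 404 with myoglobin, against 338, 354, 344 and 389 with vehicle, where the groups overlapped (0.16 ± 0.0647, limma adjusted p 0.104). Ccne1, the third gene with an unadjusted p below 0.05, had a change of 0.23 ± 0.102 (limma adjusted p 0.138).

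The call for E2f1 in this comparison depended on the fit. The adjusted p was 0.0207 with array weights, 0.0322 with vooma weights and 0.00696 with the libraries of myoglobin and vehicle alone. It was 0.00889 without replicate 1 of myoglobin and dexamethasone and 0.0403 without replicate 4, although neither library belongs to the groups compared. Over the 28 alternatives it was 0.00696 to 0.286. Of the 43 genes 3 rose with array weights and 1 with vooma weights.

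Myoglobin and dexamethasone together left the replication genes below their level in vehicle tubuloids. Of the 43 genes 35 fell and 0 rose (limma), against 2132 of 14558 genes lower (14.6%) and 2029 higher (13.9%). The median change was -0.38, with a range of -0.88 for E2f7 to -0.10 for Pcna, and all 43 were below 0. In 25 genes every library with both agents was below every vehicle library, against 13.3% of all tested genes. By role the counts were 6 of 6 for S phase entry, 8 of 11 for licensing, 5 of 5 for helicase activation, 3 of 5 for the clamp and its loader, 8 of 8 for polymerases and strand maturation, 2 of 4 for nucleotide supply and 3 of 4 for chromatin. Of the licensing calls, Orc1 (adjusted p 0.0499), Orc6 (0.0494) and Gmnn (0.0495) were close to the threshold, and they passed in 4, 2 and 2 of the 12 fits that left out 1 library. This comparison shares its libraries with both others, so it is not a separate observation of the fall.

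E2f7 had 107, 166, 135 and 132 with both agents, against 219, 235, 240 and 294 with vehicle. The groups were apart (-0.88 ± 0.127, limma adjusted p 0.00011). Prim1 had the smallest p, with 242, 253, 262 and 276 with both agents, against 335, 340, 351 and 369 with vehicle (-0.43 ± 0.0524, limma adjusted p 2.05e-05). E2f1 averaged 141 ± 19.3 with both agents and 206 ± 8.25 with vehicle (SD, n = 4 each), a change of -0.56 ± 0.0887 (limma adjusted p 0.00026). Mcm2 (adjusted p 0.054), Mcm7 (0.0517) and Mcm4 (0.0875) were the licensing genes that did not pass.

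One library stood above the rest of its group in most of these genes. Replicate 4 of myoglobin and dexamethasone was the highest of its group for 32 of the 43 genes. It was above the mean of the other 3 libraries for 39, by a median of 0.23 on the log2 scale and a range of -0.56 to 0.43, while the median over all tested genes was 0.01. Without this library 41 genes fell relative to myoglobin with a median of -0.47, and 40 fell relative to vehicle. The part of its lower depth in this was not tested. In the plot of this deviation, the genes with more reads per exonic base tended to deviate upward (Spearman rho 0.51 over 43 genes measured in the same libraries).

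**Figure D4:**
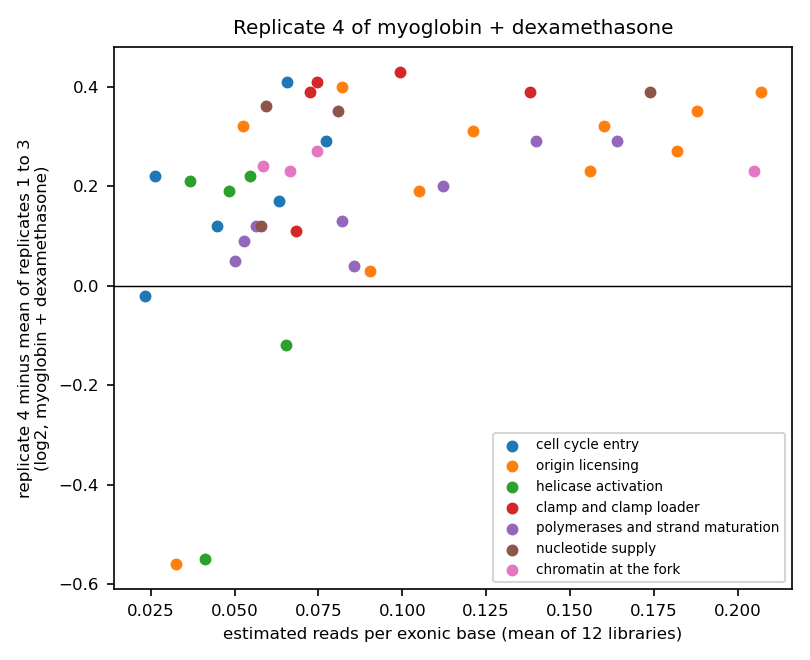
Each point is 1 of the 43 genes, coloured by role; the horizontal axis is the estimated number of reads per exonic base (mean of 12 libraries) and the vertical axis is replicate 4 minus the mean of replicates 1 to 3 with myoglobin and dexamethasone, on the log2 scale. Of the 43 genes 39 lie above 0, and the lowest are Orc1 at -0.56 and Gins3 at -0.55.

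The change with dexamethasone was also smaller in genes covered more densely. Across the 43 genes the Spearman correlation of the log2 fold change with the reads per exonic base was 0.64, and 0.51 without replicate 4 of myoglobin and dexamethasone. With the exonic length it was -0.02. These values describe 43 genes measured in the same 12 libraries, which are not independent. The part of the coverage in the order of the roles, with the MCM subunits at small changes and the E2F factors at large ones, was not tested.

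Replicate 1 stood low in every group. It was the lowest library for 40 of the 43 genes with both agents, for 33 with myoglobin and for 34 with vehicle, and replicate 4 was the highest with vehicle for 37. The count of 34 genes moved with the libraries kept. It was 21 to 41 when any 1 of the 12 libraries was left out, the lowest without replicate 4 of myoglobin. It was 19 when replicate 2 was left out of every group and 16 when replicate 3 was. In all of these fits, as in the 28 alternative settings together, all 43 changes stayed below 0, and 21 of the 34 genes passed in each of the 12 fits without 1 library.

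The median change with dexamethasone was close in genes with and without an E2F word in their promoter. Of the 15 genes with a word, such as those shown above, 14 fell relative to myoglobin, with a median of -0.43. Of the 21 genes searched without one 16 fell, with a median of -0.42. The counts are given as a description with no test, and the search can miss sites. Only exact words counted, and the window of E2f1, in the class without a word, lay inside the coordinates of the gene. In the class with a word, the windows that held it in Cdc6, Lig1, Uhrf1 and Mcm7 also lay inside the coordinates of their genes. Of the 42 promoter entries of the set, 33 had the first 30 bases after the start in a GENCODE transcript of the gene.

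The wider pathway was read from lists of genes outside the 43. In the comparison of both agents with myoglobin, 3.9% of all tested genes were lower and 3.08% higher. Of 43 other genes of the replication fork 18 fell with both agents relative to myoglobin and 0 rose, with a median change of -0.27. Dtl, the adaptor that marks Cdt1 for destruction, had 270, 339, 317 and 292 with both agents, against 502, 458, 495 and 504 with myoglobin (-0.69 ± 0.0639, limma adjusted p 1.31e-05). Atad5, which unloads the clamp, had 213, 218, 249 and 211, against 326, 322, 333 and 352 with myoglobin (-0.58 ± 0.0607, limma adjusted p 4.1e-05). Both genes were apart between the groups. The subunits Orc2, Orc3, Orc4 and Orc5 of the origin recognition complex, chosen after their values were seen, did not pass, with changes of -0.12 to 0.04.

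Most genes of the replication checkpoint and of recombination repair fell. Of 17 genes 13 fell and 0 rose, with a median of -0.54. Exo1, an exonuclease of repair, had 141, 182, 166 and 172 with both agents, against 275, 287, 289 and 299 with myoglobin (-0.80 ± 0.0752, limma adjusted p 1.36e-05). Brca2, a protein of recombination repair, had 190, 177, 189 and 172, against 280, 290, 288 and 297 with myoglobin (-0.66 ± 0.0625, limma adjusted p 1.36e-05). Neither gene overlapped between the groups.

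Fewer genes of G2 and mitosis passed. Of 27 genes 6 fell, with a median of -0.28 and all 27 changes below 0, and 16 fell relative to vehicle. Of all tested genes 3.9% were lower than with myoglobin and 14.6% lower than with vehicle. Ndc80, a kinetochore protein, changed by -0.47 ± 0.0978 (limma adjusted p 0.00912), Bub1b, a kinase of the spindle checkpoint, by -0.44 ± 0.0934 (adjusted p 0.00985), and Mki67, the proliferation antigen, by -0.29 ± 0.078 (adjusted p 0.034). The difference between replication and mitotic genes was not tested.

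Other regulators of the G1/S transition passed the test in part, while 3.9% of all tested genes were lower and 3.08% higher. Of the 21 genes on this list, which include further E2F factors and their partners, 3 fell and 1 rose, with a median of -0.08. Those that fell were Skp2 (-0.44), the ubiquitin ligase subunit that removes the inhibitor p27, Rbl1 (-0.28), an Rb-related pocket protein, and Wee1 (-0.27), a kinase that restrains CDK activity. Rbl2, the pocket protein of resting cells, had 520, 549, 514 and 554 with both agents, against 471, 479, 433 and 465 with myoglobin. It was the gene of the list that rose (0.21 ± 0.0447, limma adjusted p 0.0103). Relative to vehicle it was lower with myoglobin alone (-0.17, limma adjusted p 0.0124). With both agents Rbl2 was near the vehicle level, with means of 534 and 521 (0.04, limma adjusted p 0.578). Ccnd1, cyclin D1, had 1786, 1889, 1765 and 2559 with both agents, against 1754, 1912, 1975 and 1970 with myoglobin (0.06 ± 0.0924, limma adjusted p 0.761). Its sign turned to -0.07 without replicate 4 of both agents, the library at 2559. E2f3 (-0.17, adjusted p 0.0694) and Myc (-0.10, adjusted p 0.44) did not pass. Relative to vehicle 7 of the 21 genes fell and 1 rose, against 14.6% and 13.9% of all tested genes.

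No inhibitor of cyclin-dependent kinases passed upward with both agents relative to myoglobin. Of 7 such genes 1 fell, Cdkn2c (-0.37 ± 0.0685, limma adjusted p 0.00422), and 0 rose. An unadjusted p below 0.05 was found for 3 of the 7. With 3.9% of all tested genes lower and 3.08% higher, a list of 7 was too short to read anything from these counts. Cdkn1a, the p53 target p21, had 474, 532, 524 and 681 with both agents, against 475, 525, 552 and 601 with myoglobin. The groups overlapped widely (0.03 ± 0.0982, limma adjusted p 0.888), and the value was -0.07 without replicate 4 of both agents. Cdkn1c, the inhibitor p57, had a change of -0.46 ± 0.168 and did not pass (limma adjusted p 0.115).

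**Figure D5:**
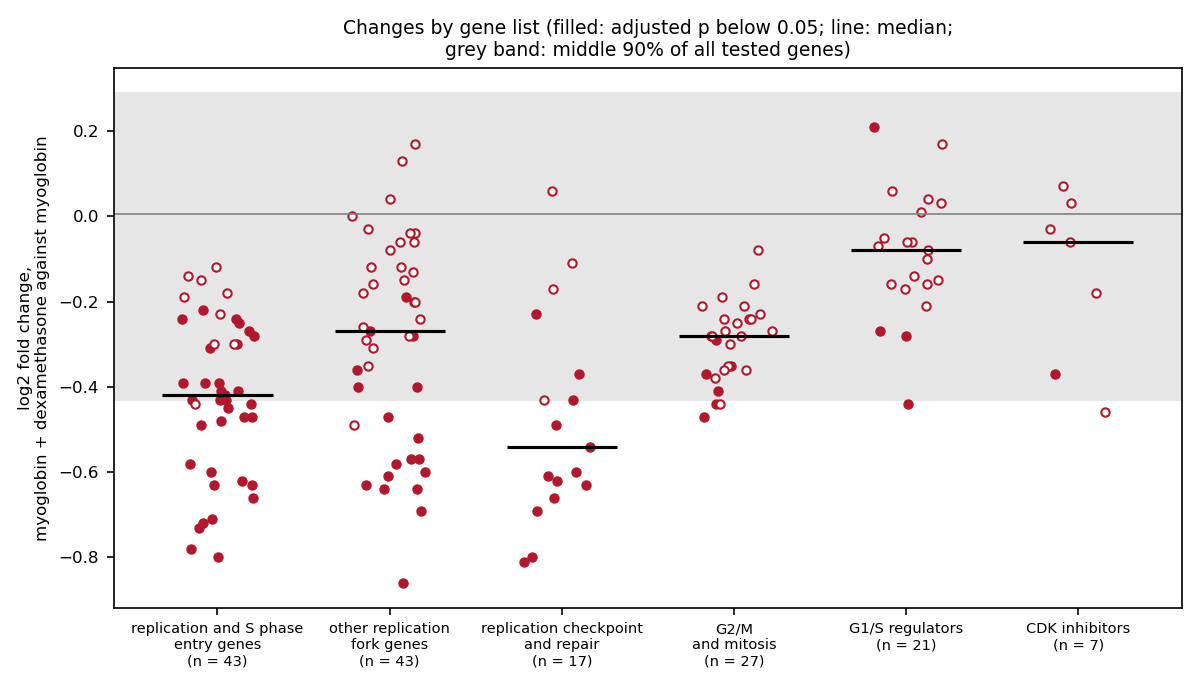
Each point is a gene, the vertical axis is the log2 fold change of myoglobin and dexamethasone against myoglobin, filled points have a limma adjusted p below 0.05, black lines are medians and the grey band holds the middle 90% of all tested genes. The medians are -0.42 for the 43 replication genes, -0.27 for other fork genes, -0.54 for checkpoint and repair, -0.28 for G2/M and mitosis, -0.08 for G1/S regulators and -0.06 for CDK inhibitors.

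With myoglobin alone against vehicle 9.62% of all tested genes were lower and 8.71% higher, and no test compared the lists with these shares. Of the 43 other fork genes 0 were lower and 2 higher, of the 17 checkpoint and repair genes 0 and 1, and of the 27 mitotic genes 0 and 0. Of the 21 G1/S regulators 2 were lower and 0 higher, and of the 7 CDK inhibitors 0 and 1. The inhibitor that was higher was Cdkn2b (0.30, limma adjusted p 0.0155). The 2 fork genes were Mtbp (0.27, limma adjusted p 0.00777), a partner in origin firing, and Pole4 (0.22, adjusted p 0.014), an accessory subunit of polymerase epsilon.

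Markers of other cells moved between the groups in part. Summed values of the 8 fibroblast and stromal markers were 86 to 120 with both agents, 123 to 190 with myoglobin and 132 to 208 with vehicle, and those of 6 endothelial markers were 34 to 49, 30 to 62 and 57 to 63. Of 8 immune markers 7 were matched, with sums of 529 to 631, 486 to 587 and 571 to 694 in the same order, most of it Ptprc. The 5 podocyte markers summed to 612 to 723, 569 to 799 and 666 to 991. The part of these cells in the fall of the replication genes was not tested.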

How the data were processed

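Messenger RNA of 12 libraries was measured, 4 each of tubuloids treated with myoglobin and dexamethasone, with myoglobin and with vehicle. Named in the submitters' processing notes, with no role given, are the build mm10, featureCounts 2.0.3, DESeq2 1.36.0, STAR 2.7.10a, Trimmomatic 0.39 and Picard 2.27.4. The values the authors deposited are a score: whole numbers that behave as size-factor-scaled read counts after rounding, so no count test was used. Whether counting used strand, and how it treated reads shared with the pseudogenes that RefSeq lists for Pcna and Tyms, is not given in the sources used here.

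The values were tested with limma-trend (limma 3.58.1, R 4.3.3) after adding a pseudocount of 1 and taking log2, in a model of the 3 groups with 1 shared spread. Genes entered the test when 4 or more libraries had a value of 10 or more, which left 14558, and two-sided p-values were Benjamini-Hochberg adjusted over them within each of the 3 comparisons. Fold changes are on the log2(value + 1) scale. "Rose" and "fell" mean an adjusted p below 0.05. The fit was also run on simulated counts that had the same dispersion setting for every gene and no difference of depth between libraries. That run says nothing on how the calls depend on the libraries kept. Exonic lengths came from GENCODE M21, where all 43 genes have the coordinates of the table, and promoters from RefSeq (GRCm38.p6). Python 3.11.15, pandas 2.3.3, numpy 2.4.6, scipy 1.17.1 and matplotlib 3.10.9 were used. There were 0 unused value columns.

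The genes and lists were chosen with earlier results of these data known, and nothing here is independent of them. Values by library are given for the 2 genes of each role (3 for S phase entry and licensing) with the smallest p with both agents against myoglobin, and the 2 with the smallest p with myoglobin against vehicle. From each further list the 2 genes with the smallest p are named, plus Ccnd1, Cdkn1a, Cdkn1c, Myc, E2f3, Mki67, Hmox1, Fkbp5 and Tsc22d3. Single values of other genes, among them those of Pcna, E2f7 and Orc1, were chosen after they were seen. Alternatives were other pseudocounts, filters, scalings, weights and sets of libraries, and a replicate block. Depth was 3.25 to 5.92 M estimated reads per library, and with 4 libraries a group the spread between libraries sets the precision.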

Additional observations from a re-analysis of the deposited data

Results flagged for a closer look

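Each of the 43 genes was searched in each group of 4 libraries for a single library far from the other 3, which makes 129 groups, and 7 were found. A library counted as far when its gap to the nearest of the others, as a share of the whole range of the group, was over the 95% critical value of Dixon's ratio. Chance flags about 1 in 20 groups.

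With myoglobin and dexamethasone, the lowest library stood apart for the activator E2f1, at 112, and for cyclin E2 (Ccne2), at 91. Both are replicate 1, which was also the lowest library for most of the other genes. The highest library stood apart for the clamp loader subunit Rfc2, at 524, and it is replicate 4. With myoglobin, the highest library stood apart for E2f7, at 283, and for Ccne2, at 199, and the lowest for the helicase subunit Mcm6, at 872. With vehicle, the highest library stood apart for the polymerase subunit Pola1, at 586. What sets these libraries apart was not tested.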

How the results depend on the processing

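The count of 34 replication genes lower with both agents than with myoglobin was 16 to 41 when libraries or replicate numbers were left out and 24 to 42 under the 12 other settings, and all 43 changes were below 0 in each of the 28 alternatives. Against vehicle the count of 35 was 25 to 40 with libraries left out and 30 to 42 otherwise. For myoglobin against vehicle, where 0 of the genes rose, 3 rose with array weights, 1 with vooma weights and 3 with only the libraries of both groups in the fit, and 0 to 2 when libraries were left out. The sign of Ccnd1, which was 0.06, turned to -0.04 with quantile normalization, -0.06 with array weights, -0.07 without replicate 4 of myoglobin and dexamethasone and -0.05 without replicate 4 of every group, and its highest value with libraries left out was 0.13. That of Cdkn1a, which was 0.03, turned to -0.06 with array weights, -0.03 without replicate 1 of myoglobin, -0.07 without replicate 4 of myoglobin and dexamethasone and -0.02 without replicate 4 of every group. The cause of these turns was not tested. Of the other single-gene values, 2715 kept their side of the threshold, 241 lost the call and 116 gained it. Higher genes were 48.8% of all calls with both agents against vehicle, but 36.9% with equal library totals and 37.9% with equal upper quartiles, and the median of all genes moved by at most 0.05.

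Replicate numbers were also used as a replicate block. Same-numbered libraries correlated by -0.015 to 0.456 in their deviations, 9 of 12 pairs over 0.1, and 20 of 24 best matches had the same number. This is a hint from the data and not from the design, so the numbers were not taken as pairing. With the block 38 genes fell with both agents against myoglobin, 42 fell with both agents against vehicle, and 2 rose with myoglobin against vehicle. Depth limits low genes most in the library with 3.25 M reads.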

Other observations

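Genes of the replication fork and of repair outside the 43 included larger changes than most of the set. The genes in this paragraph were chosen after their values were seen. Dscc1, a subunit of the alternative clamp loader that serves sister chromatid cohesion, had 38, 47, 48 and 67 with myoglobin and dexamethasone, against 84, 90, 102 and 83 with myoglobin (-0.86 ± 0.146, limma adjusted p 0.00246). Bard1, the partner of Brca1, had 79, 126, 121 and 114, against 169, 201, 181 and 212 with myoglobin (-0.81 ± 0.142, limma adjusted p 0.00297). Both were apart between the groups. Cdc7, the kinase that fires licensed origins, changed by -0.57 ± 0.0746 (limma adjusted p 0.000286). With myoglobin against vehicle these 3 genes did not pass.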
